A study of Homo sapiens with 24 samples.

Results

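The genes of the YAP and TAZ axis described here were the coactivator genes YAP1 and WWTR1, the DNA-binding partner genes TEAD1 and TEAD4, and the target genes CCN1, CCN2, ANKRD1, AMOTL2, LATS2, and NUAK2, in glioblastoma cells with and without a WWOX transgene. They were found in the table of all samples by Ensembl identifier, 10 of 10, among 43037 genes. Between the 4 cell lines 29 of 60 comparisons of a gene in the “Vec” variant passed the test, where 31.6% to 44.1% of all tested genes did per pair of lines. CCN1, for one, was 16.4-fold higher in U251MG than in DBTRG-05MG, and ANKRD1 in U87MG was at 0.0497 times its level in DBTRG-05MG. Between “WWOX” and “Vec” of the same line 1 of the 10 genes passed in 1 line, which was NUAK2, lower in the “WWOX” variant of U87MG (0.376 times “Vec”), where 3.2% of all tested genes passed. That call was lost under 7 of 11 alternative settings. CCN1 and CCN2 deviated together from library to library within the groups.

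YAP (encoded by YAP1) and TAZ (encoded by WWTR1) are coactivators that have no DNA-binding domain of their own and reach DNA through the TEAD factors. The Hippo kinases MST and LATS phosphorylate both coactivators, which keeps them in the cytoplasm, and cell contact, cell shape, and tension on the actin cytoskeleton act on this switch. Among their best known targets are the secreted matrix proteins CCN1 and CCN2, and several targets, such as AMOTL2 and LATS2, in turn restrain YAP. YAP and WWOX are both WW-domain proteins, a class that binds proline-rich motifs in partner proteins, and some partners are common to both. In glioma, YAP and TAZ are known mainly for their activity in tumors of the mesenchymal type.

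The libraries were made by CAGE-Seq, which captures capped RNA and sequences the start of each transcript. The value of a gene is the sum of tags over all of its transcript starts. The 4 established glioblastoma lines were U87MG, T98G, U251MG, and DBTRG-05MG, and 3 biological replicates were taken of the “Vec” variant and 3 of the “WWOX” variant of each, which gave 8 groups and 24 libraries. The “WWOX” variants had been transduced with a lentivirus (pLenti-GIII-CMV-GFP-2A-Puro) to express WWOX, a vector whose name gives a CMV promoter, and the “Vec” variants with a Puro-Blank lentivirus. This vector is the one the labels name, while the methods of the study name a GIPZ lentiviral system. Both variants of every line had passed selection with puromycin, and RNA came from cultured cells with no tissue around them. T98G was grown in MEM, DBTRG-05MG in RPMI 1640, and U87MG and U251MG in EMEM, so that line and medium cannot be told apart in a comparison between lines, except between U87MG and U251MG.

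The libraries held 10756072 to 16953689 tags on genes, and the 10 genes were covered by 20 to 10915 tags in a library. Values are given as scaled CPM, which are counts per 1000000 tags divided by a scaling factor of the library that lay between 0.798 and 1.218. The WWOX row itself read 44.8, 38.5, and 39.9 scaled CPM in “Vec” and 64.6, 65.5, and 65.2 in “WWOX” of U87MG, and 31.4, 33.5, and 31.6 against 48, 21.8, and 31.2 in U251MG. The log2FC of WWOX was 0.66, 0.38, -0.008, and 0.39 in U87MG, T98G, U251MG, and DBTRG-05MG and passed the test in none (limma, adjusted p between 0.137 and 1). A transcript of the transgene starts in vector sequence, which was not searched here, so the WWOX row does not check the transduction. The methods of the study state that a Western blot on extracted protein verified the efficiency of transduction. Vimentin, common to glioma cells, was at 13.5 to 71.7 CPM in every library, while GFAP, the marker of astrocytes, was at 114 to 3230 CPM in U251MG and at no more than 11.6 CPM in the other lines. SOX2, a marker of neural stem cells, was at 3 tags or fewer in all 6 U87MG libraries. It was also low in T98G (at most 0.562 CPM), against 43.9 to 90.5 in DBTRG-05MG and 31 to 268 in U251MG. OLIG2 reached 3.57 CPM in T98G and 3.24 in U87MG, but at most 0.286 in U251MG, where GFAP was highest. NES was at most 0.352 CPM in T98G and at 40.1 to 129 in U251MG. S100B was at 31.8 to 343 CPM in U251MG and at most 15.1 in the other lines. The genes of vimentin, GFAP, and OLIG2 overlap genes on the other strand, and their tags cannot be told apart if the strand was not used. The glial and neural markers summed to 483 to 3750 CPM in the “WWOX” libraries of U251MG and to 2450 to 3690 in its “Vec” libraries. The 6 markers of blood, endothelial, and epithelial cells summed to 0.143 to 2.59 CPM over all libraries. The second and the first “WWOX” libraries of U251MG and the second “Vec” library of T98G stood farthest from their groups, with a root mean square deviation over all tested genes of 0.675, 0.637, and 0.512 on the log2 scale, against 0.218 to 0.456 in the others.

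RefSeq promoters (GRCh38.p14, 250 bases before to 50 after a start) were matched for 7 of the 10 genes, with 9 promoters in all. The genes without an entry were TEAD1, TEAD4, and CCN1. The TEAD motif GGAATG was searched on both strands of the 250 bases before the start and was found in 5 of the 9, against 11.9% of 35116 promoters. In the whole window it was found in 6 of the 9, against 14%. The promoter of CCN2 held 3 copies, a number reached by 0.0826% of all promoters, and those of ANKRD1 and NUAK2 held 2 each, while 0.94% of all promoters held 2 or more. The AP-1 motif TGANTCA was in 1 of the 9, that of ANKRD1, against 6.57% of all promoters, and the CArG box of serum response factor was in 0 of the 9, against 1.16%. The AP-1 motif of ANKRD1 lay 195 bases before the start and did not overlap a TEAD motif. The stretches of the 4 target genes with the motif are shown from 50 bases before the first copy to 50 after the last or to the start, because the levels below turn on these genes. That of ANKRD1 begins at the edge of the window, 250 bases before the start. They run 5′ to 3′ along the gene, with the motif in capitals as GGAATG or, on the opposite strand, as CATTCC.
CCN2 (chr6:131951412-131951591, minus strand): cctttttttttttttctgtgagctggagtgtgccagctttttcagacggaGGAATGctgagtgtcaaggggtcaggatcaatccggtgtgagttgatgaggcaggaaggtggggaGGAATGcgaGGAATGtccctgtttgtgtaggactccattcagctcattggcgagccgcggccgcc
ANKRD1 (chr10:90921160-90921337, minus strand): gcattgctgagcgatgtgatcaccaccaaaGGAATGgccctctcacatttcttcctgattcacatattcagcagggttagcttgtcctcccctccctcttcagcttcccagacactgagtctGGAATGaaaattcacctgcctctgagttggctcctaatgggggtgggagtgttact
NUAK2 (chr1:205321746-205321992, minus strand): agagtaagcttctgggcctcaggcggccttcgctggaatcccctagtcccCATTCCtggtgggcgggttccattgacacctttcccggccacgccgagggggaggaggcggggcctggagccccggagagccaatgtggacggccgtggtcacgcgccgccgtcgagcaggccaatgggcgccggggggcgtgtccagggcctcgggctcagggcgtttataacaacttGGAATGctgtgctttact
AMOTL2 (chr3:134374461-134374566, minus strand): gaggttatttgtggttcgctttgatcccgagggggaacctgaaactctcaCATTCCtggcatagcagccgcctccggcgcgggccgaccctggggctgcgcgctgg
The copies of CCN2 began 169, 104, and 95 bases before the start. Those of ANKRD1 began 220 and 128 bases before it, those of NUAK2 197 and 18 bases before it, and the copy of AMOTL2 69 bases before it, in 1 of its 2 promoters (the other held none). YAP1 held 1 copy, 162 bases before the start, and 2 promoters of WWTR1 held none. A match describes the letters in the window and is no measurement of binding.

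YAP1 (hg38, GENCODE 44: chr11:102110447-102233424, plus strand) encodes YAP. In U87MG it read 4.21, 6.58, and 4.93 scaled CPM in the “Vec” libraries and 7.25, 3.77, and 3.35 in the “WWOX” libraries. In T98G the values were 12.5, 21.8, and 10.2 in “Vec” and 12.9, 16.9, and 13.2 in “WWOX”. T98G lay above U87MG in every library, and the 2 variants overlapped in both lines. In U251MG, YAP1 stood at 7.7, 6.45, and 7.58 in “Vec” and 10.9, 7, and 8.6 in “WWOX”. DBTRG-05MG gave 11.2, 6.8, and 10.6 in “Vec” and 11.2, 9.69, and 8.34 in “WWOX”. Again “Vec” and “WWOX” overlapped, and the log2FC of the 4 lines lay between -0.17 and 0.25, with 95% intervals that reached from -0.79 to 0.87. Those intervals leave out a change of 2-fold in either direction.

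WWTR1 (chr3:149517235-149736714, minus strand) encodes TAZ. Its “Vec” libraries read 3.33, 4.39, and 5.56 scaled CPM in U87MG, and the “WWOX” libraries read 3.05, 2.47, and 2.9. The groups did not overlap, all “WWOX” values were lower, and the log2FC of -0.56 (SE 0.272) did not pass the test (limma, adjusted p = 0.448). T98G had 3.42, 3.77, and 2.33 in “Vec” and 2.79, 4.66, and 4.14 in “WWOX”. U251MG had 6.16, 5.72, and 3.23 in “Vec” and 4.64, 5.74, and 7.05 in “WWOX”. DBTRG-05MG had 6.23, 6.04, and 8.66 in “Vec” and 6.87, 7.73, and 5.69 in “WWOX”. The variants overlapped in these 3 lines, and the highest single value, 8.66, was a “Vec” library of DBTRG-05MG. WWTR1 shares its locus with the antisense gene WWTR1-AS1, and whether the counting used the strand is not given in the sources used here.

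TEAD1 (chr11:12674421-12944737, plus strand), a factor that carries YAP and TAZ to DNA, was the most even of the 10 between lines, with the highest “Vec” mean 1.28 times the lowest. It stood at 11.4, 20.4, and 16.6 scaled CPM in “Vec” and 19.8, 16.7, and 13.2 in “WWOX” of U87MG. T98G read 16.1, 31, and 12.6 in “Vec” and 15.1, 11.7, and 7.87 in “WWOX”. The largest log2FC of TEAD1 was that of T98G, -0.70 (SE 0.377, limma adjusted p = 0.497), and without the second “Vec” library of T98G, the highest of its group, it was -0.33. In U251MG the values were 18.2, 21.1, and 16.3 in “Vec” and 24.2, 12.1, and 40.9 in “WWOX”. In DBTRG-05MG they were 18.3, 15.4, and 28.2 in “Vec” and 23.8, 23.6, and 17.3 in “WWOX”. The variants overlapped in all 4 lines.

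TEAD4 (chr12:2959330-3040676, plus strand), a related factor, followed the lines. U87MG gave 19.1, 13, and 18.2 scaled CPM in “Vec” and 12.8, 22.6, and 20.9 in “WWOX”. T98G gave 11.6, 19.7, and 11.7 in “Vec” and 15.7, 15.8, and 11.7 in “WWOX”. Every library of these lines was above every library of the other two. U251MG gave 9.24, 3.98, and 6.06 in “Vec” and 1.74, 6.82, and 3.61 in “WWOX”. DBTRG-05MG gave 4.73, 6.16, and 4.08 in “Vec” and 4.23, 3.02, and 3.38 in “WWOX”. The log2FC was -0.70 in U251MG and -0.43 in DBTRG-05MG, and neither passed the test (limma, adjusted p = 0.475 and 0.918). The median log2FC of the genes on chromosome 12, where TEAD4 lies, was -0.20 in DBTRG-05MG. In U251MG the low value of 1.74 came from the first “WWOX” library, without which the log2FC was -0.27, and without the second it was -1.15.

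CCN1 (chr1:85580761-85584589, plus strand), formerly CYR61, encodes a secreted matrix protein that binds integrins. The “Vec” libraries of U87MG read 44.7, 22.3, and 42.3 scaled CPM and the “WWOX” libraries 37.4, 24.6, and 40.0. In T98G, CCN1 was at 159.9, 663, and 206 in “Vec” and at 586, 579.7, and 335 in “WWOX”. One “Vec” library of T98G, the second, was above all of its “WWOX” libraries, while the other two were below all of them, and the log2FC moved from 0.79 to 1.41 without it and to 0.39 without the first. In U251MG the values were 460.0, 139.7, and 438 in “Vec” and 33.5, 414, and 179 in “WWOX”. The log2FC in U251MG was -1.16 with an interval of -2.50 to 0.18, and it was -0.16 without the first “WWOX” library and -2.00 without the second. In DBTRG-05MG, CCN1 was at 13.8, 20.4, and 21.2 in “Vec” and at 60.6, 41.2, and 65.6 in “WWOX”. Here the groups did not overlap and the log2FC was 1.57 (SE 0.644), with an unadjusted p of 0.0238 and an adjusted p of 0.485 by limma, so that it did not pass the test.

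CCN2 (chr6:131948176-131951372, minus strand), formerly CTGF, encodes a related secreted protein known for its part in fibrosis. U87MG had 13.7, 2.46, and 8.03 scaled CPM in “Vec” and 30.9, 10.5, and 27.5 in “WWOX”. The groups overlapped, since 10.5 in the second “WWOX” library was below 13.7 in the first “Vec” library. The log2FC of 1.59 (interval 0.076 to 3.10) had an unadjusted p of 0.0404 and an adjusted p of 0.387 by limma. Without the second “Vec” library, the lowest of the 6 at 2.46, it was 0.94. T98G had 15.4, 41.1, and 10.3 in “Vec” and 36.2, 19.7, and 15 in “WWOX”, with a log2FC of 0.23 that lay between -0.17 (without the third “Vec” library) and 0.78 (without the second) when a library of T98G was left out. In U251MG the values were 302, 95.1, and 122 in “Vec” and 19.2, 243, and 148 in “WWOX”. The first “WWOX” library was there the lowest of 6 by a wide margin, and the log2FC of -0.77 turned to 0.32 without it and was -1.53 without the second, none of which passed the test. DBTRG-05MG had 66.2, 50.4, and 74.6 in “Vec” and 111, 57.1, and 108 in “WWOX”, which overlapped. The antisense gene LINC01013 lies over CCN2, and tags of the pair cannot be told apart if the strand was not used.

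ANKRD1 (chr10:90912096-90921087, minus strand), an ankyrin repeat protein of muscle that is also a common readout of YAP activity, spanned a wide range among the lines. In U87MG it was at 7.14, 3.95, and 2.11 scaled CPM in “Vec” and at 4.31, 1.45, and 6.61 in “WWOX”. T98G read 3.96, 34.5, and 2.05 in “Vec” and 4.13, 15.8, and 9.87 in “WWOX”. The second “Vec” library of T98G was again far above the other two, and the log2FC moved from 0.33 to 1.45 without it and to -0.42 without the third. U251MG read 28.3, 27, and 17 in “Vec” and 6.5, 34.1, and 25.1 in “WWOX”. DBTRG-05MG read 73.8, 132, and 72.8 in “Vec” and 392, 135, and 214 in “WWOX”. All 3 “WWOX” libraries of DBTRG-05MG were above its “Vec” libraries, though the lowest, 135, was close to the highest “Vec” value of 132. The log2FC of 1.33 (SE 0.754) did not pass the test (limma, adjusted p = 0.764). The median log2FC of the genes on chromosome 10, where ANKRD1 lies, was 0.21 in that comparison.

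AMOTL2 (chr3:134355347-134375479, minus strand) encodes an angiomotin family protein that binds YAP at cell junctions. U87MG read 30.1, 29.8, and 39.6 scaled CPM in “Vec” and 18.9, 24.2, and 24.7 in “WWOX”. T98G read 78, 75.6, and 71.5 in “Vec” and 58.4, 71.4, and 63.3 in “WWOX”. In both lines every “WWOX” library was below every “Vec” library, with a log2FC of -0.54 (interval -1.08 to 0.002) in U87MG and -0.22 (interval -0.77 to 0.32) in T98G, and neither passed the test (limma, adjusted p = 0.437 and 0.812). In U251MG, AMOTL2 was at 109, 118, and 112 in “Vec” and 58.1, 129.8, and 119.8 in “WWOX”. In DBTRG-05MG it was at 50.6, 51.8, and 34.6 in “Vec” and 52.1, 31.8, and 48.3 in “WWOX”. The variants overlapped in these lines.

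LATS2 (chr13:20973036-21061586, minus strand) encodes one of the kinases that phosphorylate YAP and TAZ. Its values in U87MG were 9.92, 7.46, and 12.2 scaled CPM in “Vec” and 17.6, 10.2, and 6.97 in “WWOX”. In T98G they were 22, 38, and 20.5 in “Vec” and 26.2, 39.6, and 36 in “WWOX”. Again every library of T98G was above every library of U87MG. U251MG gave 24.3, 16.3, and 22.3 in “Vec” and 26.8, 12, and 25.3 in “WWOX”. DBTRG-05MG gave 13.4, 16.4, and 11.3 in “Vec” and 20.0, 12.3, and 16.1 in “WWOX”. The variants overlapped in every line, and the log2FC lay between -0.037 in U251MG and 0.37 in T98G. LATS2-AS1 lies antisense to part of LATS2.

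NUAK2 (chr1:205302063-205321745, minus strand) encodes a kinase of the AMPK-related family and is a YAP target in several tumor types. In U87MG its “Vec” libraries read 8.17, 13.2, and 13.2 scaled CPM and its “WWOX” libraries 2.75, 4.21, and 5.16. Every “WWOX” library was below every “Vec” library, and NUAK2 fell, with a log2FC of -1.41 (SE 0.383, interval -2.21 to -0.62, limma adjusted p = 0.0434). That is a level of 0.376 times the “Vec” level, in bulk RNA where fewer cells with the transcript and fewer transcripts per cell cannot be told apart. T98G read 7.23, 13.4, and 7.74 in “Vec” and 15.4, 13.6, and 11 in “WWOX”, with a log2FC of 0.51. U251MG read 42, 36.9, and 40.6 in “Vec” and 9.81, 33.6, and 35.5 in “WWOX”, which did not overlap, with a log2FC of -0.79 (adjusted p = 0.439 by limma) that was -0.20 without the first “WWOX” library. Every “WWOX” library was thus below every “Vec” library in U87MG and in U251MG, and the difference passed the test in U87MG. In DBTRG-05MG, NUAK2 was at 38.4, 25, and 37.3 in “Vec” and 19.8, 36.4, and 35.1 in “WWOX”, which overlapped. The log2FC of U87MG was lower than that of T98G by 1.92 on the log2 scale (SE 0.541), a difference with an unadjusted p of 0.00183 and an adjusted p of 0.0659 by limma. The call in U87MG was lost under 7 of 11 alternative settings and in 16 of 24 fits that left out a library, while the log2FC stayed between -1.65 and -1.20. Of its own libraries, leaving out the second or the third “Vec” library or any “WWOX” library ended it (limma adjusted p between 0.0508 and 0.226).

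**Figure D1:**
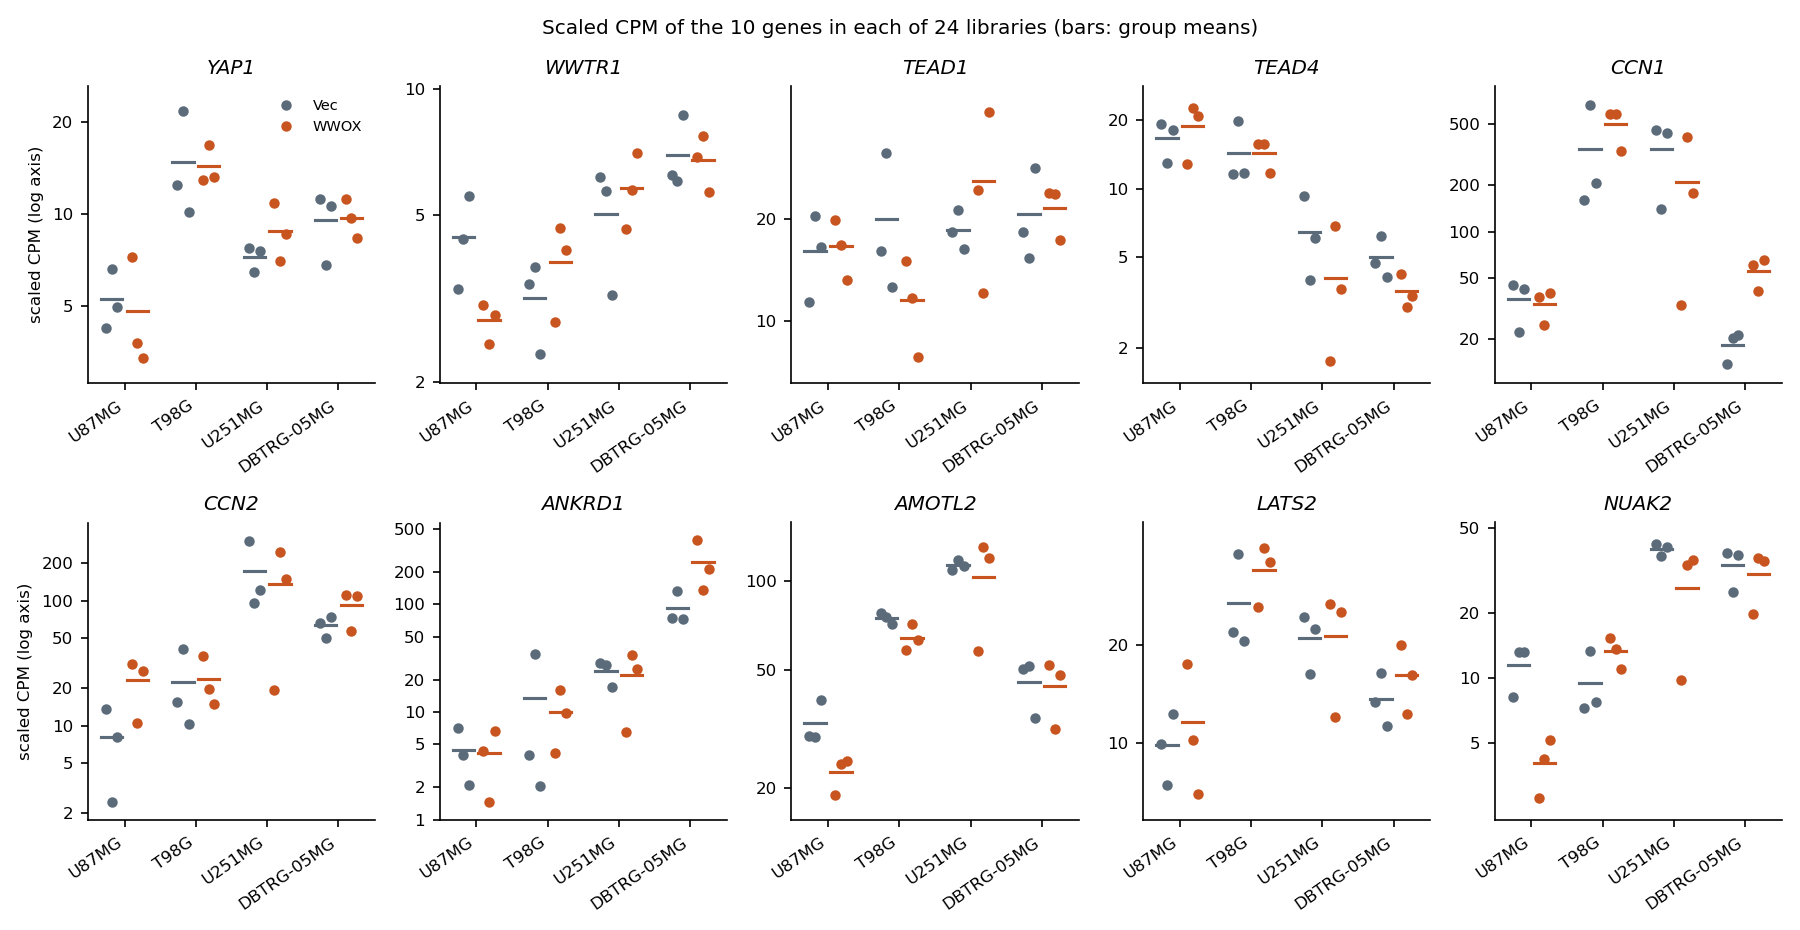
Scaled CPM (log axis) of the 10 genes in each of the 24 libraries, with replicates 1 to 3 from left to right within a group, “Vec” in grey and “WWOX” in orange, and group means as bars. Each gene except TEAD1 passed the test between some lines in “Vec”. NUAK2 in U87MG is the case where the “WWOX” libraries (2.75, 4.21, and 5.16) lie below the “Vec” libraries and pass the test.

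Counted over the genes, 1 of 10 passed the test for “WWOX” versus “Vec” in U87MG, where 3.2% of the 12327 tested genes did. None of the 10 passed in T98G, U251MG, or DBTRG-05MG, where the shares over all genes were 1.14%, 0.316%, and 1.02%. Unadjusted p fell under 0.05 for 2 of the 10 in U87MG (CCN2 and NUAK2), for 0 in T98G and U251MG, and for 1 in DBTRG-05MG (CCN1), against 11.5% of all tested genes in each of the first 3 lines and 7.63% in DBTRG-05MG. In the latter 3 lines 0 of 10 were also called by edgeR's quasi-likelihood test and by DESeq2. For the mean of the 4 lines none was called, against 1.78% of all genes, and the lowest unadjusted p was that of NUAK2 (0.0244, log2FC -0.46, SE 0.191). A test of whether the log2FC differed between the lines called none of the 10, against 3.5% of all genes, and the lowest unadjusted p were 0.0118 for NUAK2 and 0.0397 for CCN1. Without the first “WWOX” library of U251MG, that test called NUAK2.

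For 3 of 10 genes, WWTR1, AMOTL2, and NUAK2, all “WWOX” libraries of U87MG lay on the same side of all “Vec” libraries, against 17.5% of all tested genes. Groups were separate in this way for AMOTL2 in T98G, 1 of 10 against 16.2%, and for NUAK2 in U251MG, 1 of 10 against 10.4%. In DBTRG-05MG they were separate for CCN1 and ANKRD1, 2 of 10 against 19.7%. The median log2FC of the 10 in U87MG was -0.10 (-0.005 over all tested genes), in T98G 0.24 (-0.04), in U251MG -0.30 (0), and 0.07 (0.004) for DBTRG-05MG. In T98G 8 of the 10 had a log2FC above 0, and in U251MG 7 of the 10 had one below 0. In T98G the second “Vec” library was the highest of its group for 9 of the 10 genes, which lowers the log2FC of those genes. Without it the log2FC in T98G moved up, from 0.79 to 1.41 for CCN1 and from 0.33 to 1.45 for ANKRD1. In U251MG the first “WWOX” library was the lowest of its group for 7 of the 10, which also lowers their log2FC. The first “Vec” library of U251MG was in turn the highest of its group for 8 of the 10. The part of those libraries in the medians was not tested. In DBTRG-05MG, where CCN1 and ANKRD1 did not overlap, the markers of other cell types summed to 1.1 to 2.59 CPM in “WWOX” and to 0.395 to 0.644 in “Vec”, and their part was not tested either. Of these markers CDH1 reached 2.33 CPM in DBTRG-05MG, while PTPRC, CD14, PECAM1, VWF, and EPCAM stayed at or under 0.262 CPM in all of its libraries.

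**Figure D2:**
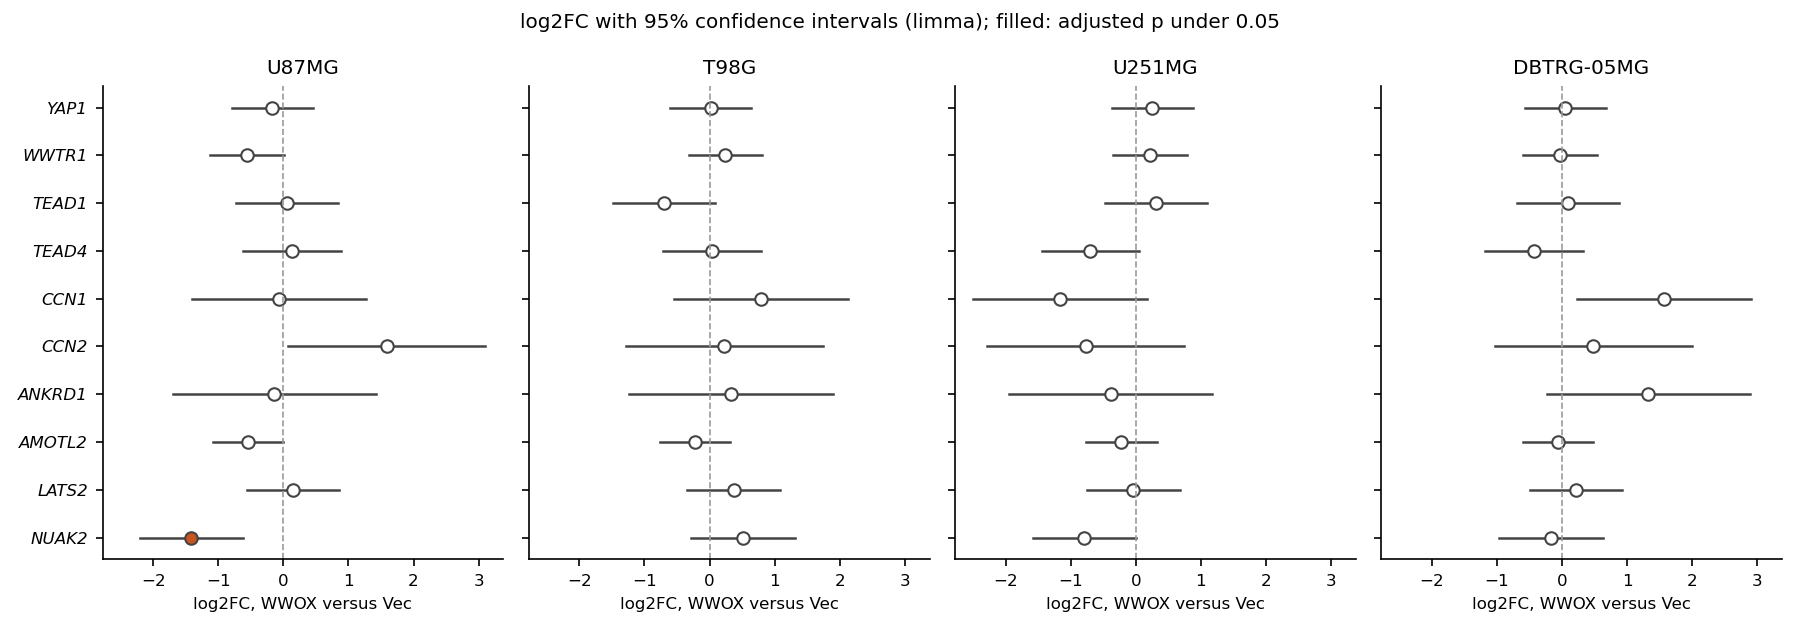
log2FC of “WWOX” versus “Vec” (x axis) for the 10 genes (y axis) in each line, with 95% confidence intervals from limma as lines and filled points where the adjusted p was under 0.05. NUAK2 in U87MG (-1.41) is the filled point, and the intervals of CCN1, CCN2, and ANKRD1 are the widest, with standard errors of 0.644, 0.728, and 0.754.

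The lines were then compared in their “Vec” variants, which asks what level of the axis each line starts from. Of the 10 genes, 4 differed between U87MG and T98G (39.8% of all tested genes did), 7 between U87MG and U251MG (38.6%), and 5 between U87MG and DBTRG-05MG (44.1%). T98G differed from U251MG in 4 of 10 (32.4% of all genes) and from DBTRG-05MG in 7 (41.2%). U251MG differed from DBTRG-05MG in 2 (31.6%). The share of the 10 genes lay near or above that of all genes in 5 of the 6 pairs and below it in 1. In all, 29 of 60 pairs passed the test, and 22 of the 29 also passed in every fit that left out a library and under every other alternative.

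The genes of the secreted proteins differed widely between lines. CCN1 was high in T98G (343 ± 278 scaled CPM, SD, n = 3) and U251MG (346 ± 179) and low in U87MG (36.4 ± 12.3) and DBTRG-05MG (18.5 ± 4.09). The difference of U251MG over DBTRG-05MG was 4.03 on the log2 scale (SE 0.644, limma adjusted p = 3.52e-05). U251MG and T98G did not pass the test (interval -1.46 to 1.22 for T98G minus U251MG, limma adjusted p = 0.911). U87MG and DBTRG-05MG did not pass it either (log2 difference 0.92, limma adjusted p = 0.259). The libraries of U87MG and DBTRG-05MG did not overlap, however, and those of U87MG were higher. CCN2 had a different order, with U251MG highest (173 ± 112), then DBTRG-05MG (63.7 ± 12.3), T98G (22.3 ± 16.5), and U87MG (8.04 ± 5.6). U87MG was below U251MG by 4.43 on the log2 scale (limma adjusted p = 3.54e-05), and no pair of neighbours in the order of CCN2 passed the test. DBTRG-05MG thus ranked last for CCN1 and second for CCN2, and T98G ranked second for CCN1 and next to last for CCN2.

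ANKRD1 was highest in DBTRG-05MG (92.9 ± 33.9 scaled CPM), followed by U251MG (24.1 ± 6.19), T98G (13.5 ± 18.2), and U87MG (4.4 ± 2.54). U87MG was below DBTRG-05MG by 4.33 on the log2 scale (limma adjusted p = 6.21e-05), and none of the neighbours in that order passed the test, with adjusted p of 0.0592, 0.0893, and 0.482 by limma. AMOTL2 was highest in U251MG (113 ± 4.53) and lowest in U87MG (33.1 ± 5.62), a log2 difference of -1.76 for U87MG minus U251MG (adjusted p = 8.7e-06 by limma). The libraries of DBTRG-05MG and U87MG overlapped, and the pair did not pass the test (limma adjusted p = 0.174). NUAK2 was high in U251MG (39.8 ± 2.61) and DBTRG-05MG (33.5 ± 7.4) and low in U87MG (11.5 ± 2.91) and T98G (9.46 ± 3.44), and each line of the first pair differed from each line of the second. LATS2 was highest in T98G (26.8 ± 9.71) and lowest in U87MG (9.88 ± 2.4), by -1.37 for U87MG minus T98G (limma adjusted p = 0.00267).

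The coactivators and TEAD factors spanned less than CCN1, CCN2, ANKRD1, and NUAK2. Their highest “Vec” mean was 1.28 to 3.36 times the lowest, against 4.21 to 21.5 times for those target genes. For LATS2 and AMOTL2 it was 2.72 and 3.41 times. YAP1 was highest in T98G (14.8 ± 6.17 scaled CPM) and lowest in U87MG (5.24 ± 1.22), which differed by -1.36 on the log2 scale for U87MG minus T98G (limma adjusted p = 0.000839), and no neighbours in the order T98G, DBTRG-05MG, U251MG, U87MG passed the test. WWTR1 passed in 1 of 6 pairs, T98G against DBTRG-05MG (3.17 ± 0.749 and 6.97 ± 1.47, limma adjusted p = 0.00422). TEAD4 differed between each of U87MG and T98G and each of the other two lines, by 1.12 to 1.65 on the log2 scale, and within neither pair. TEAD1 passed in 0 of 6 pairs, with the lowest adjusted p at 0.493 by limma and intervals of at most -1.12 to 0.44 (U87MG minus DBTRG-05MG). By the “Vec” means, the line with the highest YAP1, T98G, was the lowest for WWTR1 and NUAK2 and the highest for LATS2. It did not pass the test against the next line for YAP1, WWTR1, NUAK2, or LATS2 (limma adjusted p = 0.137, 0.236, 0.583, and 0.533). In “WWOX” the lowest line for WWTR1 and NUAK2 was U87MG.

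Some of these differences rest on single libraries. Without the second “Vec” library of T98G, the differences between T98G and U251MG were lost for YAP1 (adjusted p = 0.129 by limma) and TEAD4 (0.0902), those between T98G and DBTRG-05MG for LATS2 (0.171) and AMOTL2 (0.0519), and ANKRD1 passed between T98G and U251MG (0.00208) and CCN2 between T98G and DBTRG-05MG (0.0246). The difference of ANKRD1 between T98G and DBTRG-05MG was -4.73 without that library and -2.85 without the third “Vec” library. That of CCN1 fell to 3.29 between T98G and DBTRG-05MG and was -2.37 for U87MG minus T98G. Without the second “Vec” library of U251MG, YAP1 and TEAD4 were also lost between T98G and U251MG, which left 2 of 10. Without the second “Vec” library of U87MG, the difference of CCN2 was -3.76 for U87MG minus U251MG and -2.50 for U87MG minus DBTRG-05MG, both past the test. The other calls that a single library ended were YAP1 between U87MG and DBTRG-05MG (the first or the third library of either line), LATS2 between U87MG and U251MG (the second of U87MG, the first or the third of U251MG) and between T98G and DBTRG-05MG (the first or the third of DBTRG-05MG), AMOTL2 between T98G and DBTRG-05MG (the third of DBTRG-05MG, the first or the third of T98G), and ANKRD1 between U87MG and U251MG (the third of U87MG).

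**Figure D3:**
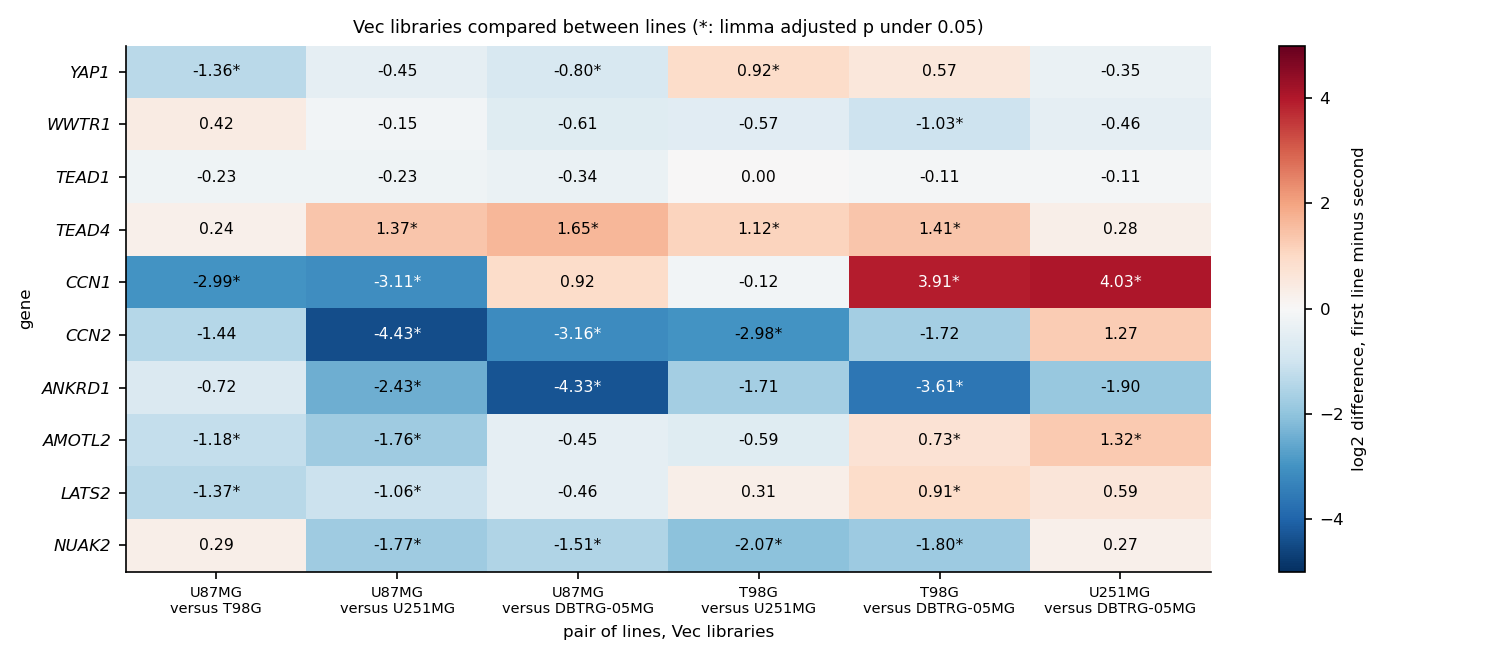
Differences between lines in the “Vec” libraries on the log2 scale (color and printed value, first line minus second) for the 10 genes (rows) and 6 pairs of lines (columns), with an asterisk where the limma adjusted p was under 0.05. CCN1, CCN2, and ANKRD1 hold the largest differences, up to -4.43, and TEAD1 has no asterisk.

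The order of the lines by mean was the same in “WWOX” as in “Vec” for 6 of the 10 genes, namely YAP1, TEAD4, CCN2, ANKRD1, AMOTL2, and LATS2. The highest line was the same for 7 and the lowest for 6. In the “WWOX” variants ANKRD1 stood at 247 ± 132 scaled CPM (SD, n = 3) in DBTRG-05MG and 4.12 ± 2.58 in U87MG, so that the highest mean was 60.0 times the lowest, against 21.1 times in “Vec”. For CCN2 the highest mean over the lowest was 5.95 in “WWOX” against 21.5 in “Vec”. The difference between those ratios was not tested.

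Within the groups, some pairs of genes varied together from library to library and others did not. With the group means removed, the log2 values of CCN1 and CCN2 had Pearson's r = 0.877 (Spearman's rho = 0.842) over the 24 libraries, and r = 0.782 without the 2 libraries farthest out. CCN1 and TEAD4 had r = 0.833 (rho = 0.711, and r = 0.692 without the 2), CCN1 and ANKRD1 had r = 0.622 (rho = 0.492, and r = 0.529 without the 2), and CCN2 and ANKRD1 had r = 0.615 (rho = 0.615, and r = 0.59 without the 2). YAP1 had r = 0.635 with its partner TEAD1 (rho = 0.675, and r = 0.562 without the 2), r = 0.583 with LATS2 (rho = 0.483, and r = 0.381 without the 2), and r = -0.005 with CCN1 (rho = -0.0357, and r = -0.266 without the 2). LATS2 had r = 0.0255 with CCN1 (r = 0.556 without the 2) and 0.0435 with CCN2. It had r = -0.0762 with AMOTL2 and -0.358 with NUAK2. CCN1 and AMOTL2 had r = 0.534, and 0.104 without the 2. For the pairs of CCN1 with CCN2, TEAD4, ANKRD1, LATS2, and AMOTL2, the 2 were the first and second “WWOX” libraries of U251MG. Those libraries also deviated most over all tested genes (root mean square 0.637 and 0.675). The values of r describe the libraries, and the points share depth and scaling within a library and the group means within a group. The first “WWOX” library of U251MG was the lowest of its group for CCN1, CCN2, ANKRD1, AMOTL2, NUAK2, TEAD4, and WWTR1, and it was the highest for YAP1 and LATS2.

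**Figure D4:**
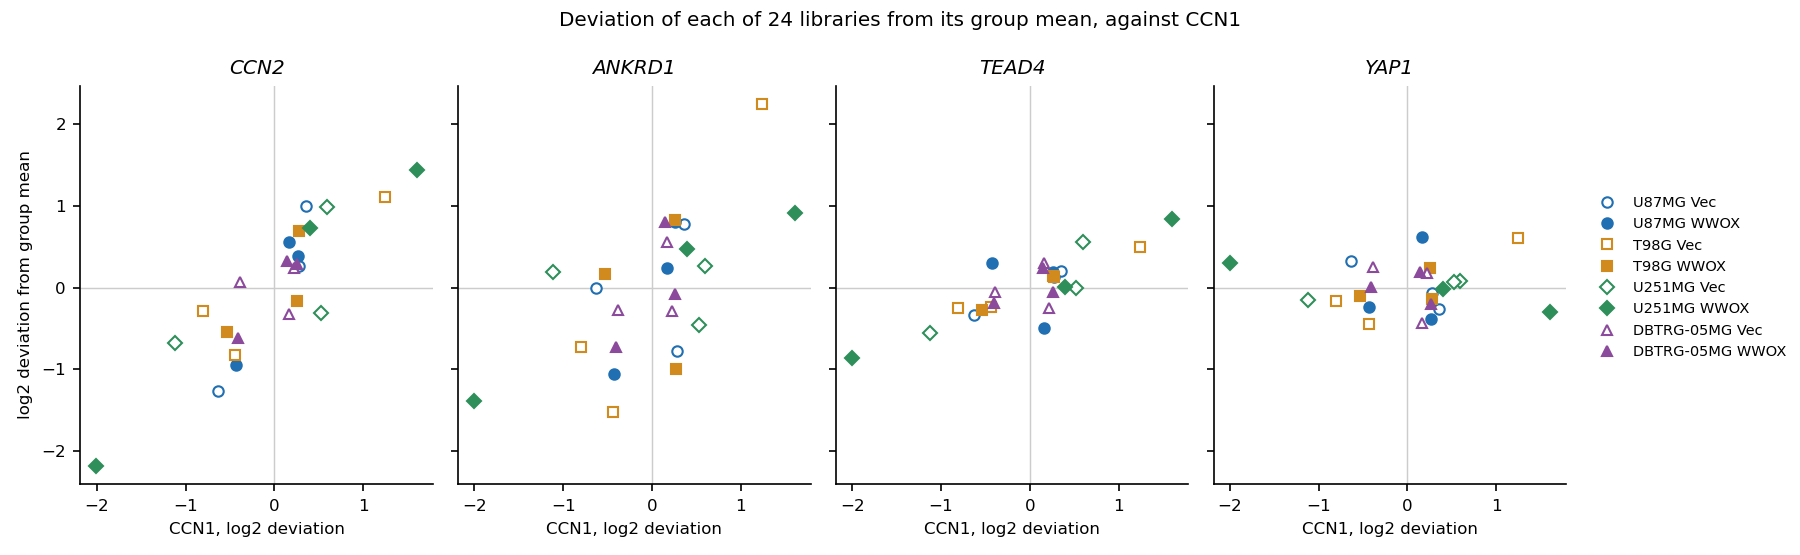
Deviation of each of the 24 libraries from its group mean (log2 scale) for CCN2, ANKRD1, TEAD4, and YAP1 (y axes) against CCN1 (x axis), with one symbol per line, open for “Vec” and filled for “WWOX”. CCN2 and TEAD4 follow CCN1 (r = 0.877 and 0.833), YAP1 does not (r = -0.005), and the first “WWOX” library of U251MG lies farthest to the left.

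Over all tested genes, those most like CCN1 across the 24 libraries, with the line means removed, were SNRPA (r = 0.758), NTRK3 (r = 0.757), and PTRH2 (r = 0.754). For CCN2 they were TUFT1 (r = 0.76), CCN1 (r = 0.748), and RDH10 (r = 0.729), and for ANKRD1 they were PNP (r = 0.79), ADAMTS16 (r = 0.741), and PLAC8 (r = 0.739). CCN1 was thus the second closest of all tested genes to CCN2.

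The 10 genes were set beside longer lists of the pathway. Of the 22 genes of a YAP and TAZ target list, 21 were tested. In U87MG 2 passed, NUAK2 and F3, and both fell. The shares over all tested genes given above, 3.2%, 1.14%, 0.316%, and 1.02% past the test in U87MG, T98G, U251MG, and DBTRG-05MG, stand beside the counts of this and the other lists, as do 11.5%, 11.5%, 11.5%, and 7.63% at an unadjusted p under 0.05. F3, which encodes tissue factor, read 16.7, 69.6, and 57.4 scaled CPM in “Vec” and 13.2, 12.3, and 13.4 in “WWOX” of U87MG, groups that did not overlap, with a log2FC of -1.61 (limma adjusted p = 0.045) that ran from -2.26 without the first “Vec” library to -1.25 without the second. In T98G 1 passed, FOXF2, a forkhead factor that fell from 39.8, 28.9, and 49.6 in “Vec” to 16.2, 9.41, and 7.8 in “WWOX” (log2FC -1.81, limma adjusted p = 0.00032). In U251MG 1 passed, NT5E, which encodes the nucleotidase CD73 and rose from 26.3, 13.9, and 8.37 to 31.2, 51.6, and 46.7 (log2FC 1.50, limma adjusted p = 0.0459). In DBTRG-05MG 0 passed, with 3 at an unadjusted p under 0.05, and NT5E was there lower in “WWOX” (88.9, 94.5, and 78.3 against 163, 156, and 183, log2FC -0.94, adjusted p = 0.31 by limma). The median log2FC of the list was -0.12, 0.08, -0.10, and 0.11 in U87MG, T98G, U251MG, and DBTRG-05MG, against -0.005, -0.04, 0, and 0.004 over all tested genes. FOXF2 was also called in the mean of the 4 lines (log2FC -0.55, limma adjusted p = 0.0236), although it read 0 in every library of U87MG, and the call was lost under 4 of 10 alternatives (the replicate block, edgeR, limma-voom, and DESeq2) and without the third “WWOX” library of T98G or the second “Vec” library of U251MG. F3 lost its call under 6 of 11 alternatives and NT5E under 5 of 11, and leaving out a library ended that of F3 in 13 and that of NT5E in 20 of 24 fits. Libraries of other lines were among them, since every library enters the estimate of the spread.

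Of 10 coactivators and DNA-binding partners, 9 were tested, with a median log2FC of 0.06, 0, 0.30, and 0.05 in U87MG, T98G, U251MG, and DBTRG-05MG. TEAD2, the family member found mainly in early development, fell in U87MG: it read 1.59, 2.98, and 3.1 scaled CPM in “Vec” and 0.0599, 0, and 0 in “WWOX”. Over the 3 libraries these are 98 tags against 1 tag, or 0.939% of the “Vec” level with a counting interval of 0.0235% to 5.35% (limma adjusted p = 7.8e-05), and its log2FC depends on the pseudocount. TEAD2 was lower in the mean of the 4 lines as well (log2FC -1.08, limma adjusted p = 0.00143). T98G read 23.9, 16.8, and 23.5 in “Vec” and 24, 14.8, and 18.1 in “WWOX”, which overlapped. VGLL3, a cofactor that competes for TEAD binding, fell in T98G from 0.609, 2.73, and 1.12 to 0.207, 0.0804, and 0.069, 65 tags against 4 (adjusted p = 0.0236 by limma), a call lost under 5 of 10 alternatives and without the second or the third library of either variant of T98G. Of 24 Hippo kinases and regulators, among them MST1 and MST2 (STK4, STK3), NF2, and the TAO kinases, 22 were tested and 0 passed in any line, with 2, 0, 4, and 2 at an unadjusted p under 0.05 in U87MG, T98G, U251MG, and DBTRG-05MG. Their median log2FC was -0.14, -0.17, -0.03, and 0.09.

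Immediate early genes and actin genes respond to many of the same serum and tension signals as the CCN genes and were counted beside them. Of 15 immediate early genes 14 were tested, and 1 passed, IER3 in T98G. It fell from 96.1, 47.4, and 101 scaled CPM in “Vec” to 1.86, 1.29, and 0.414 in “WWOX” (log2FC -5.63, limma adjusted p = 2.71e-06). In U251MG all 14 had a log2FC above 0 (median 0.69) and in U87MG 12 of 14 did (median 0.75), though 0 passed in either, with 2 and 5 at an unadjusted p under 0.05. In DBTRG-05MG 11 of 14 were below 0, with a median of -0.21. The part of such signals in the values of CCN1 and CCN2 was not tested.

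Of 14 actin and serum response factor target genes, 13 were tested, with a median log2FC of -0.09 in U87MG, -0.12 in T98G, and 0.07 in DBTRG-05MG. TAGLN, an actin-binding protein of smooth muscle, rose in U87MG from 0.555, 0.439, and 0.704 scaled CPM in “Vec” to 79.3, 31.2, and 33.3 in “WWOX” (log2FC 5.38, limma adjusted p = 1.48e-08). It rose in DBTRG-05MG too, from 1.56, 1.02, and 1.13 to 16.9, 33.1, and 74.7 (log2FC 4.36, limma adjusted p = 1.66e-06). The tropomyosin gene TPM1 fell in U87MG (log2FC -1.77, 425, 723, and 546 in “Vec” and 137, 178, and 170.3 in “WWOX”) and rose in DBTRG-05MG (log2FC 1.66, 35.5, 33.6, and 42.3 and 103, 102, and 154), with limma adjusted p of 0.000454 and 0.00276. TPM2 fell in U87MG (log2FC -2.45, limma adjusted p = 0.000209), and the myosin light chain gene MYL9 fell in T98G, where it was low (3.8, 3.28, and 2.15 against 1.34, 0, and 0.138, limma adjusted p = 0.00895), a call lost without the first “Vec” or the second or the third “WWOX” library of T98G. In U251MG 12 of 13 had a log2FC below 0 (median -0.39) and 0 passed, with 3 at an unadjusted p under 0.05. TAGLN, TPM1, IER3, and TEAD2 overlap genes on the other strand, whose tags cannot be told apart from theirs if the strand was not used.

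**Figure D5:**
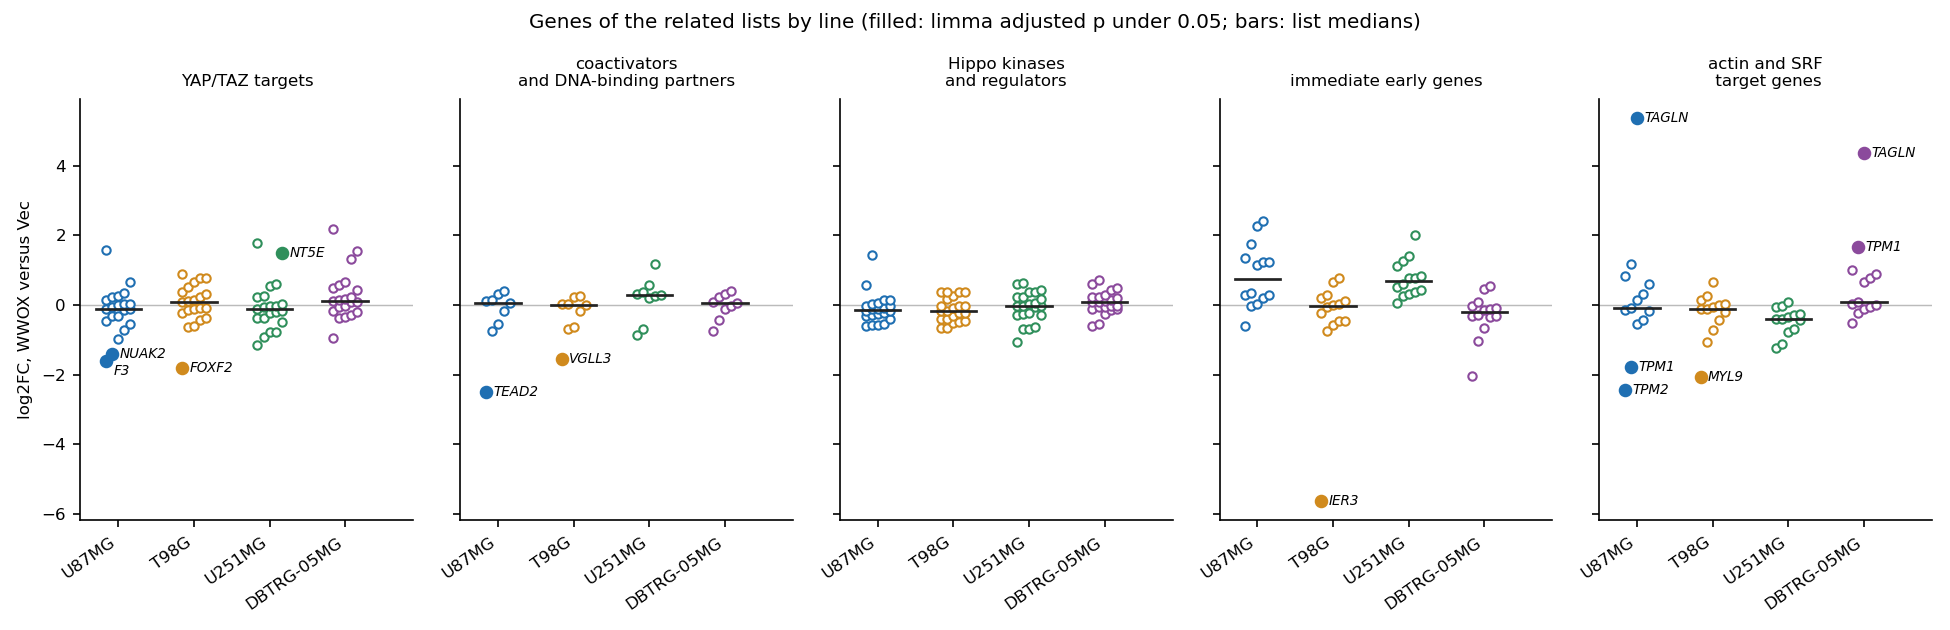
log2FC of “WWOX” versus “Vec” (y axis) for the tested genes of the 5 related lists in each line (x axis), filled and named where the limma adjusted p was under 0.05, with list medians as bars. TAGLN (up to 5.38) and IER3 (-5.63) lie far out, while the medians of the YAP and TAZ target list stay between -0.12 and 0.11.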

How the data were processed

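CAGE tags of 24 libraries were used. Per the labels and the methods of the study, the authors aligned reads to hg38 with STAR, counted tags with SAMtools, and deposited counts per 1000000 tags (CPM) per gene, with replicates kept apart. The annotation release and the use of strand in the counting are not given in the sources used here. Each column summed to 1000000, and whole tags were recovered for 100% of values (tolerance 0.01 tag), so depth was known. The floor of 3 tags was 0.177 to 0.279 CPM.

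CPM were divided by scaling factors from the trimmed mean of M-values. The 12327 genes that reached 5 CPM in 1 or more libraries entered limma 3.58.1 with a mean-variance trend on log2(scaled CPM + 0.5), in R 4.3.3. One model held the 8 groups with 16 residual degrees of freedom. The pseudocount makes a fold change of a low gene too small. p-values were adjusted by Benjamini-Hochberg over all tested genes and called at 0.05. Contrasts were “WWOX” minus “Vec” in each line and in the mean of the lines, an F test of the difference between lines, and the 6 pairs of “Vec” groups. Alternatives were other pseudocounts, filters, and scalings, a model per line, a replicate block, edgeR 4.0.16, DESeq2 1.42.0, and limma-voom on recovered tags, and each library left out. They were also run on the lists, a step added after the data were seen. The fit was tested on simulated data. The interval of a tag ratio is for counting error only and is exact (Clopper-Pearson, 95%). Intervals and SE of a log2FC are from limma and rest on the spread between libraries.

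The 10 genes and the lists were chosen with earlier results of these data known. From each list the genes past the threshold in a line were named, at most the 3 largest, and for CCN1, CCN2, and ANKRD1 the 3 genes with the highest Pearson's r. Positions are from GENCODE 44 and promoters from RefSeq GRCh38.p14. Protein sequences were not analysed here.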

Additional observations from a re-analysis of the deposited data

Results flagged for a closer look

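The log2FC of “WWOX” versus “Vec” differed between the lines for 9 of the 76 tested genes of the related lists, by the F test of limma, which called 3.5% of all tested genes. The lists were chosen with earlier results of these data known, so nothing is concluded from a share above that of all genes. The adjusted p was 2.47e-07 for TAGLN, 3.18e-05 for IER3, 0.000101 for TPM1, 0.0032 for MYL9, 0.00795 for FOXF2, 0.00902 for NT5E, 0.0363 for VGLL3, 0.0379 for TEAD2, and 0.0462 for TPM2. TPM1 had a log2FC of -1.77 in U87MG and 1.66 in DBTRG-05MG, both past the test. NT5E had one of 1.50 in U251MG, past the test, and -0.94 in DBTRG-05MG, which was not. TAGLN had one of 5.38 in U87MG, 4.36 in DBTRG-05MG, -1.05 in T98G, and 0.092 in U251MG, of which the first 2 passed. IER3 was at -5.63 in T98G and between -0.016 and 0.52 in the other lines. None of YAP1, WWTR1, TEAD1, TEAD4, and the 6 target genes differed between lines by this test, with unadjusted p under 0.05 for NUAK2 and CCN1.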

How the results depend on the processing

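No called value changed its sign. The count of the 10 genes called in U87MG, 1 (NUAK2), was 0 with a pseudocount of 1, with no filter, with a mean of at least 5 CPM, with CPM as deposited, with a separate model per line, and with limma-voom, and 0 to 1 when a library was left out. With the replicate block it was 0, and the block moved the calls over all genes from 395, 140, 39, and 126 to 307, 63, 23, and 76 in U87MG, T98G, U251MG, and DBTRG-05MG. Same-numbered “Vec” and “WWOX” libraries had r between -0.546 and 0.51, and not every library correlated best with its own number. In DBTRG-05MG each “Vec” library correlated best with a “WWOX” library of another number (r = 0.637, 0.613, and 0.633). In U251MG the second “Vec” and the third “WWOX” library had r = 0.701. What such libraries share was not tested. The F test count was 0 to 1 with a library left out, and that of T98G against U251MG in “Vec” 2 to 5. Among single log2FC of “WWOX” versus “Vec”, 524 kept direction and call, 9 moved, and 7 lost the call under other settings, against 1129, 55, and 16 with a library left out. Between lines in “Vec”, 583 kept both, 4 moved, 8 gained, and 5 lost the call, against 1394, 16, 11, and 19. The calls lost between lines were AMOTL2 (T98G and DBTRG-05MG), YAP1 (T98G and U251MG), and LATS2 (T98G and DBTRG-05MG) with CPM as deposited, LATS2 also with no filter, and TEAD4 (T98G and U251MG) with the block. YAP1 (U87MG and DBTRG-05MG) stayed just under the threshold with the block, at an adjusted p of 0.05 when rounded. CPM as deposited moved the median of all genes from -0.08 to -0.28 for U87MG minus DBTRG-05MG and by less in the other pairs. Of the genes called in that pair, 45.1% were higher in U87MG with the main scaling and 35% with CPM as deposited. Calls over all genes ranged from 198 to 618 in U87MG, 0 to 273 in T98G, 3 to 162 in U251MG, 38 to 395 in DBTRG-05MG, 95 to 385 for the mean, and 172 to 833 for the F test. With a library left out they ranged from 253 (without the second “Vec” library) to 491 in U87MG, from 45 (without the third “WWOX” library) to 394 (without the second “Vec” library) in T98G, from 13 (without the third “Vec” library) to 557 (without the second “WWOX” library) in U251MG, and from 74 (without the first “Vec” library) to 149 in DBTRG-05MG, and for the mean they were 849 without the second “WWOX” library of U251MG. The cause of these shifts was not tested. In the lists, the counts of genes called ranged from 0 to 3 for the YAP and TAZ targets in U87MG. Few tags limit what can be seen of TEAD2 in U87MG (98 and 1) and VGLL3 in T98G (65 and 4).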
